A study of Caenorhabditis elegans with 6 samples.

Results

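The 61 genes described here had clearly higher signals in Caenorhabditis elegans mutant for tdp-1 than in wild type. They were chosen by the measured log2 signals themselves: a gene was taken when its lowest value on the 3 tdp-1(ok803) arrays exceeded its highest value on the 3 wild-type arrays by 0.4 or more on the log2 scale, a distance called the gap below. Of 17118 genes measured, 61 met this rule, or 0.356%. Genes of 10 classes (asp, clec, ins, ech, dod, lys, gst, nhr, cyp and ugt) were left out by name. They still count among the 17118. With these classes kept in, and each gene taken by its brightest probe set, 0.415% of genes measured met the gap upward. Of 790 probe sets of these classes 13 met the gap, or 1.65%, against 0.31% of the probe sets outside them, and asp-12 (difference 2.98), clec-60 (3.30) and ins-7 (2.16) had the widest gaps among them. Because the genotype difference chose the 61 genes, their differences are given as a description with no test.

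Whole worms of mixed stages were compared on 6 Affymetrix C. elegans Genome Arrays, 3 from wild-type N2 animals and 3 from the outcrossed tdp-1(ok803) mutant, whose allele is labelled loss-of-function. Both genotypes were grown under standard conditions, and the samples of a genotype are biological replicates per the series' design text. One mutant allele was examined, and whole worms pool all tissues, so a change in the number of cells of a type and a change in RNA per cell cannot be told apart. Values are log2 signals, 1 per probe set and array, with array medians between 5.41 and 5.52. A probe set is a group of short probes for 1 transcript, and signals of different probe sets cannot be ranked against each other.

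The protein TDP-1 is the worm orthologue of TDP-43, a nuclear RNA-binding protein that forms inclusions in amyotrophic lateral sclerosis and frontotemporal dementia. Proteins of this family bind UG-rich RNA and act in splicing and in the turnover of transcripts, and worm tdp-1 has also been tied to the control of double-stranded RNA and to stress responses. The targeted gene itself, tdp-1, read 8.86, 9.22 and 8.85 on the wild-type arrays and 4.77, 4.78 and 5.47 on the mutant arrays, so every array matched its label.

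As a background, 75 of 20766 probe sets with 1 gene symbol, 0.361%, met the gap in the upward direction and 66, 0.318%, met it downward. Under the same rule and exclusions 60 genes were set apart downward. The upward and downward counts were thus close, and nothing about direction is read from them. Groups that merely did not overlap were found upward in 6.8% and downward in 4.84% of all 22548 probe sets.

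Differences of the 61 genes, mutant minus wild type, ran from 0.53 to 2.06 on the log2 scale with a median of 0.91, or 1.44-fold to 4.16-fold with a median of 1.88-fold, against a median of 0.013 over all genes measured. Of the 61, 24 differed by at least 1 log2 unit and 37 by less. Gaps ran from 0.401 to 1.47 with a median of 0.514, so most of the genes sat near the threshold. The genes just inside it were F59C6.16 (gap 0.401), Y102A11A.3 (0.409), kola-3 (0.409), fzr-1 (0.41) and warf-1 (0.41). Those just outside were F23F12.3 (0.399), gei-3 (0.388), wdr-12 (0.384), T28A11.19 (0.381) and rnh-2 (0.377), and nothing separates the last gene inside from the first outside but 0.002 of a log2 unit.

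**Figure D1:**
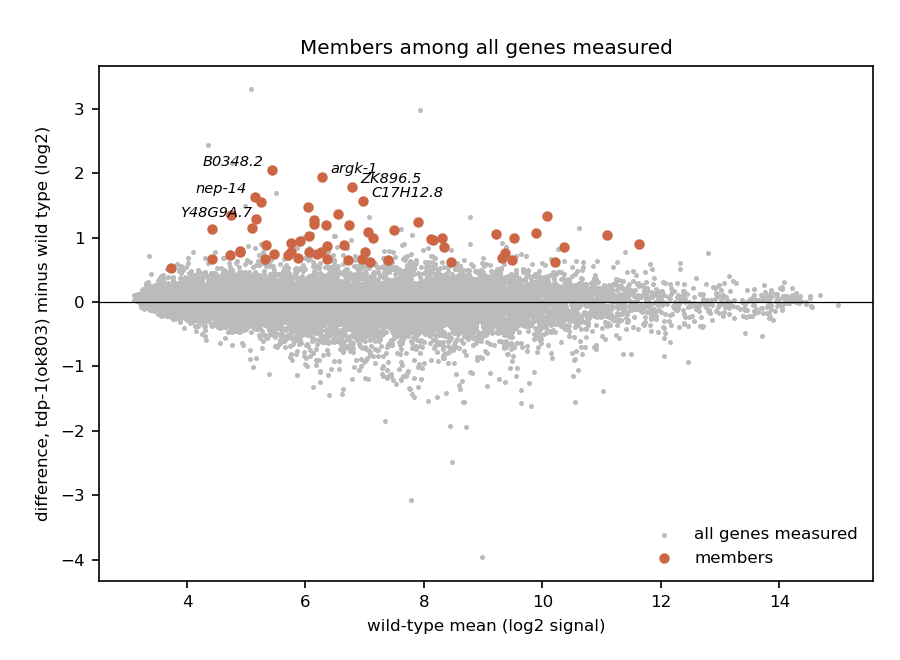
Each point is a gene, with its wild-type mean (log2 signal) on the horizontal axis and its difference, tdp-1(ok803) minus wild type (log2), on the vertical axis. Grey points are all 17118 genes measured and orange points the 61 upward-separated genes, which lie between 0.53 and 2.06 and spread over most of the signal range.

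The widest gap among the 61 belonged to B0348.2, a protein-coding gene on chromosome V. Its wild-type values were 5.75, 5.41 and 5.15 and its mutant values 7.36, 7.22 and 7.89, a difference of 2.06 ± 0.22 (SE, n = 3 per genotype). All mutant arrays were far above all wild-type arrays, with mutant replicate 3 the highest. The next widest was nep-14, which belongs to the neprilysin-like metallopeptidase class, enzymes that cut peptides outside the cell. The gene table lists nep-14 itself as a pseudogene. It read 5.25, 5.22 and 4.96 in wild type and 6.82, 6.61 and 6.88 in the mutant, a difference of 1.63, and both genotypes were tight, with SDs of 0.16 and 0.14.

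Genes with no class name came next. Y48G9A.7 read 5.35, 5.38 and 5.0 in wild type against 6.66, 6.48 and 7.24. T16H12.2 read 4.63, 4.75 and 4.84 against 5.79, 6.09 and 6.38. In both, every mutant array stood more than 0.9 above every wild-type array. W03D2.6, the other pseudogene of the set per the gene table, read 4.50, 4.43 and 4.32 against 5.89, 5.34 and 5.44, with mutant replicate 1 the highest. No measure of background was available for these low wild-type signals, and the folds are uncertain for that reason. In all, 15 of the 61 had a wild-type mean under 5.48, the mean of the array medians, or 24.6%, against 48.5% of all genes, and 3 had a mutant mean under it.

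Other members were well into the measured range in both genotypes. F52E1.14 read 11.21, 10.99 and 11.07 in wild type and 12.28, 12.14 and 11.99 in the mutant, a difference of 1.05. C46C2.5 read 9.48, 9.08 and 9.08 against 10.35, 10.25 and 10.21, a difference of 1.06. The mutant arrays of both were close together, with SDs of 0.15 and 0.071. Y39B6A.1 read 11.76, 11.78 and 11.37 against 12.59, 12.36 and 12.67, and T13F3.6 differed by 0.86. For these genes neither genotype was near the bottom of the signal range.

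**Figure D2:**
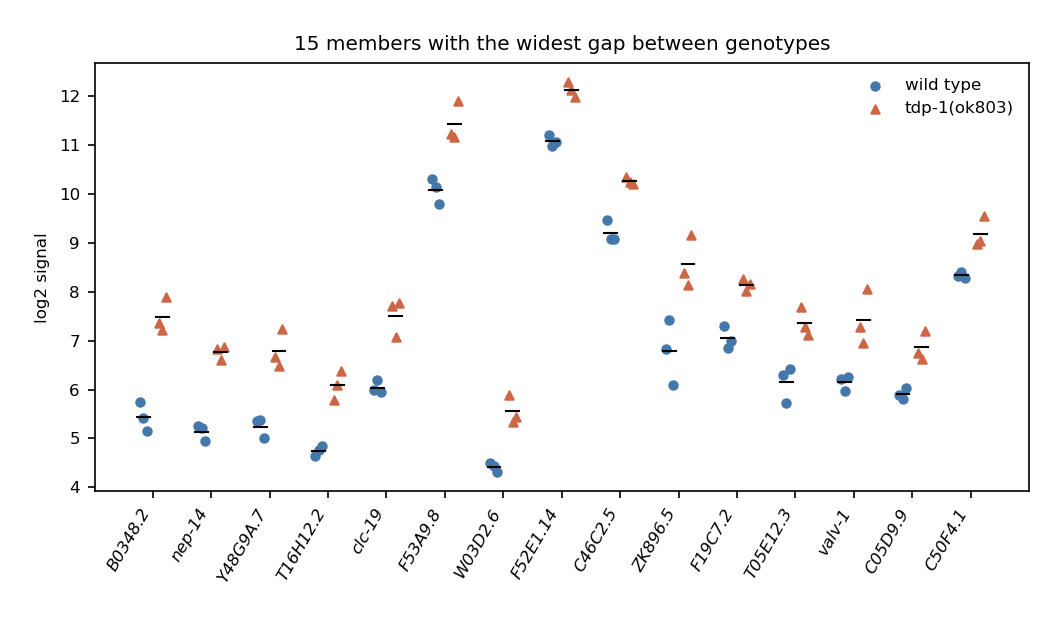
Log2 signal (vertical axis) of the 15 upward-separated genes with the widest gap, ordered by gap, on each array. Blue circles are the 3 wild-type arrays, orange triangles the 3 tdp-1(ok803) arrays and black lines the means; B0348.2 has the widest gap, 1.47, and C50F4.1 the narrowest of the 15, 0.587.

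Of the 22 gene lists, the one of immune effectors and pathogen response genes held the most members. It was drawn up with earlier results of these data known, and it held 4 of the 61, F53A9.8, C17H12.8, cnc-2 and spp-18, out of 47 measured genes, or 8.51%, beside 0.356% of all genes. With all 47 genes, each by its brightest probe set, the median difference was 0.14 and 32 were higher, and 3 were past the gap upward and 2 downward. In limma 0 of the 47 passed an adjusted p under 0.05 in either direction, where 0.031% of all probe sets passed upward and 0.0266% downward. At an unadjusted p under 0.05, which 3.58% of all probe sets passed upward and 3.38% downward, the list had 10 higher (21.3%) and 3 lower (6.38%), and an unmoderated linear model called 0. Members on the list were chosen by the same genotype difference and count among its genes, so these shares are no test of the list.

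F53A9.8 read 10.31, 10.14 and 9.8 in wild type and 11.23, 11.16 and 11.89 in the mutant, a difference of 1.34. For cnc-2, a caenacin, one of a family of antimicrobial peptides made in the epidermis, the values were 6.47, 6.35 and 6.21 against 8.21, 6.98 and 7.44. The wild-type arrays of cnc-2 agreed closely (SD 0.13) and the mutant arrays were spread (SD 0.62), with mutant replicate 1 the highest. The other 7 caenacin genes measured differed by -0.14 to 0.62 with a median of 0.095, and none was separated. The highest of them was cnc-4, which lies 2 genes from cnc-2 on the chromosome, at 7.25, 7.45 and 7.55 against 8.64, 7.42 and 8.04. Here, too, mutant replicate 1 was the highest, and mutant replicate 2 lay within the wild-type range. The probe set of cnc-2 is of a type that may cross-hybridise.

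The saposin-like gene spp-18, whose class encodes small proteins that disturb membranes, some of them antibacterial, read 9.86, 9.51 and 10.33 in wild type and 11.09, 10.97 and 10.88 in the mutant, a difference of 1.08. Among the other 17 spp genes 9 were higher and 8 lower, from -0.86 (spp-13) to 0.89 (spp-8). The values of spp-8, 7.71, 7.17 and 8.02 against 8.59, 8.38 and 8.60, did not overlap either, with a gap of 0.355 that fell short of the threshold. C17H12.8 was among the most variable of the 61, at 7.70, 7.32 and 5.89 in wild type and 8.35, 8.23 and 9.06 in the mutant, a difference of 1.57 with a wild-type SD of 0.95. Its other, brighter probe set read 8.39, 7.62 and 6.85 against 8.79, 8.87 and 8.60, again with wild-type replicate 3 the lowest and no overlap between genotypes. The list median uses this brighter probe set.

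F-box proteins and Skp1-related adaptors are parts of SCF complexes, which mark proteins for degradation, and worm F-box genes form one of the largest families in the genome. Of 171 fbxa genes measured, fbxa-106 and fbxa-14 met the rule. Values of fbxa-106 were 6.79, 6.70 and 6.68 against 7.34, 7.28 and 7.49, and those of fbxa-14 were 5.38, 5.12 and 5.46 against 6.08, 5.92 and 5.98. The differences were small, 0.65 and 0.67, but the arrays of each genotype agreed closely, with SDs from 0.058 to 0.18.

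The remaining fbxa genes leaned the same way. Of 169, 115 were higher in the mutant (68%, beside 53% of all genes) and 54 lower, with a median of 0.083. In 27 of them, 16% beside the 6.8% of all probe sets, the mutant values lay wholly above the wild-type values, and in 3 wholly below. Many fbxa genes had low signals, with no measure of background. Some of the 27 moved little, as in fbxa-10 (means 3.53 and 3.63) and fbxa-113 (3.46 and 3.62). The largest differences among the 169 were in fbxa-157 (0.84, groups overlapping) and fbxa-69 (0.78), which read 4.59, 4.53 and 5.05 against 5.83, 5.41 and 5.27. Over the wider list of 413 F-box, MATH, BTB and BATH genes, limma called 0 at an adjusted p under 0.05, an unmoderated model called 0, and 25 were higher (6.05%, beside 3.58% of all probe sets) and 1 lower (0.24%, beside 3.38%) at an unadjusted p under 0.05. The median of that list was 0.042, well under the differences of its 2 members, and many of its genes have near-identical relatives that can share probes. Of its 413 genes 260 were higher, and of 1266 chemoreceptor genes 810 were, with a median of 0.040. At an unadjusted p under 0.05, 0.95% of the chemoreceptor genes were higher and 0 lower.

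The Skp1-related gene skr-4, also counted among the intracellular pathogen response genes, read 6.50, 6.39 and 6.23 in wild type and 7.36, 6.91 and 7.46 in the mutant, a difference of 0.87. Its class mates did not lean one way, with 8 higher and 10 lower and a median of -0.014. In the list of 34 intracellular pathogen response genes 27 were higher, where 53% of all genes were, with a median of 0.080. There limma called 0, and an unmoderated model called 0. At an unadjusted p under 0.05, 2 were higher (5.88%, beside 3.58% of all probe sets) and 0 lower (beside 3.38%). The gene fzr-1 encodes the Cdh1 coactivator of another ubiquitin ligase, the anaphase-promoting complex. It read 8.53, 8.5 and 8.35 against 9.01, 8.94 and 9.32, a difference of 0.63.

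Claudin-like genes, which encode membrane proteins related to those of tight junctions, had 2 members of 23 measured. For clc-19 the values were 5.98, 6.19 and 5.95 in wild type and 7.71, 7.07 and 7.77 in the mutant, a difference of 1.48. For clc-1 they were 7.96, 8.45 and 8.04 against 9.38, 8.91 and 9.05, a difference of 0.96. A second probe set of clc-1 also met the gap, at 7.72, 7.0 and 7.45 against 8.31, 8.55 and 8.13. It was the only one of the 61 genes with more than 1 such probe set. The class as a whole did not move one way: 11 of the other 21 were higher and 10 lower, from -0.91 in clc-6 to 0.78 in clc-25. On the X chromosome, 2 genes from clc-1, lies the lipocalin-related gene lpr-3, which differed by -1.57, so close neighbours differed in opposite directions.

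**Figure D3:**
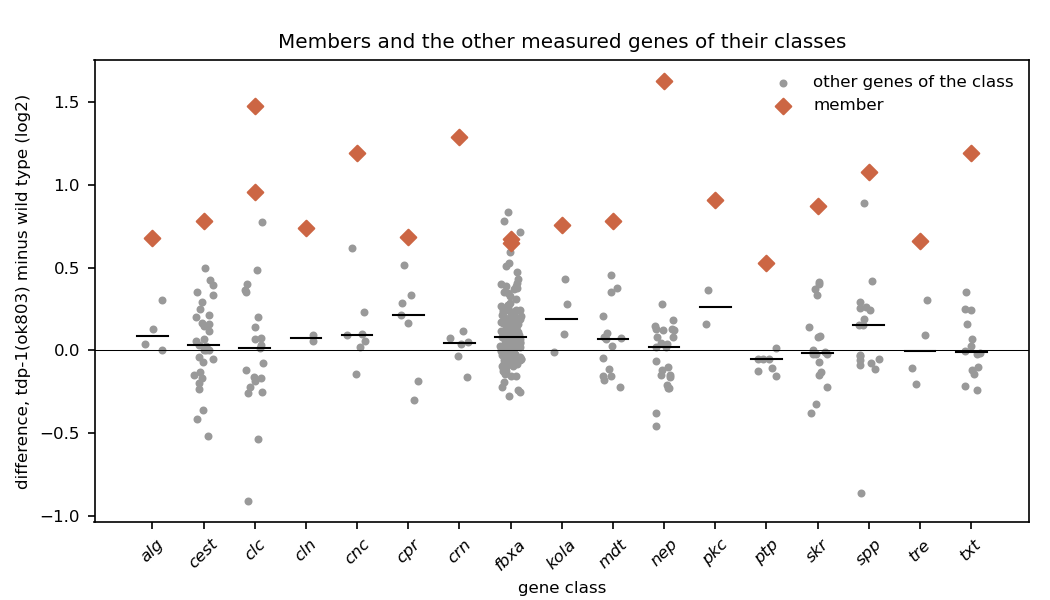
Difference, tdp-1(ok803) minus wild type (log2), for every measured gene of each gene class that holds an upward-separated gene and at least 3 measured genes. Orange diamonds are the upward-separated genes, grey points the rest of the class and black lines the median of the grey points, which lies between -0.054 (ptp) and 0.262 (pkc).

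The arginine kinase gene argk-1, which stood in none of the lists, belongs to a family that buffers ATP through phosphoarginine. It had the second largest difference of the set, 1.94 ± 0.44 (SE, n = 3 per genotype), with a narrow gap of 0.474. Its values were 5.74, 5.78 and 7.32 in wild type and 7.79, 8.11 and 8.76 in the mutant. Wild-type replicate 3 thus stood well above its group and close to the mutant arrays, and without it the difference was 2.46. The gene next to argk-1, cth-1, of the cystathionine gamma-lyase family, read 8.11, 8.6 and 9.6 in wild type and 9.87, 10.01 and 10.4 in the mutant, a difference of 1.33 with a gap of 0.273, below the threshold. The trehalase gene tre-3, whose class splits the storage sugar trehalose, read 7.42, 7.33 and 7.43 against 8.20, 7.85 and 8.13, while the other 4 tre genes differed by -0.20 to 0.31.

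The gene cln-3.1 is an orthologue of human CLN3, a lysosomal membrane protein whose loss causes juvenile neuronal ceroid lipofuscinosis. It read 5.56, 5.21 and 5.62 in wild type and 6.16, 6.22 and 6.23 in the mutant, a difference of 0.74, and the other CLN3 orthologues differed by 0.057 (cln-3.2) and 0.091 (cln-3.3). For crn-6, a cell-death-related nuclease of the DNase II family that clears DNA, the values were 5.28, 4.74 and 5.46 against 6.6, 6.0 and 6.75, a difference of 1.29. Its other probe set differed by 0.27, with overlapping genotypes. The other 6 crn genes stayed between -0.16 and 0.11. The cathepsin B-like protease gene cpr-3 read 6.01, 5.88 and 5.73 against 6.43, 6.52 and 6.74. Of the other 7 cpr genes 5 were higher, 1 of them without overlap, and 2 lower, with a range of -0.30 (cpr-5) to 0.52 (cpr-1) and a median of 0.22.

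The Argonaute gene alg-5, whose product acts with microRNAs in the germ line, read 9.0, 9.47 and 9.51 in wild type and 9.92, 9.99 and 10.11 in the mutant, a difference of 0.68. Its 2 other probe sets did not follow, with differences of 0.069 and -0.37. The other 4 alg genes differed by 0.0011 to 0.31. In the list of 50 small RNA and double-stranded RNA genes alg-5 was the only member, the median was -0.014, and limma and an unmoderated model each called 0. At an unadjusted p under 0.05, 2 were higher (4%, beside 3.58% of all probe sets) and 2 lower (4%, beside 3.38%), close to the shares over all probe sets. The Mediator subunit gene mdt-17 read 5.95, 6.12 and 6.12 against 6.69, 6.85 and 7.0, a difference of 0.78. Its 2 other probe sets differed by 0.088, with overlapping genotypes, and 0.24. Mediator is the complex that links transcription factors to RNA polymerase II. Of the other 15 Mediator genes 9 were higher and 6 lower, with a median of 0.066 and a lowest value of -0.22 (mdt-6). In 4 of the 15 (26.7%, beside 6.8% of all probe sets) the mutant values lay wholly above the wild-type ones, among them mdt-10 (0.45), mdt-11 (0.38) and mdt-18 (0.35), and in 0 wholly below.

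Signalling enzymes among the 61 were pkc-2 and ptp-8. The conventional protein kinase C gene pkc-2 read 5.82, 5.69 and 5.74 in wild type and 6.44, 6.25 and 7.29 in the mutant, with mutant replicate 3 far above the rest. It is covered by 6 probe sets. The other 5 differed by -0.26 to 0.30 and none of them met the gap, so the separation was seen at 1 probe set of the gene. The receptor-type tyrosine phosphatase gene ptp-8 had the smallest difference of the set, 0.53, at 3.64, 3.78 and 3.75 against 4.34, 4.2 and 4.2. The genotypes were each tight, with SDs of 0.071 and 0.081.

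Across the 61 genes, 20 had further probe sets, 27 in all. Of these 23 were higher in the mutant (85.2%, beside 53% of all genes), 8 without overlap (29.6%, beside 6.8% of all probe sets) and 1 past the gap (3.7%, beside 0.361%). The differences of the chosen and the further probe set were 0.69 and 0.61 in cpr-3, 0.90 and 0.58 in Y39B6A.1, and 0.86 and 0.56 in T13F3.6, where the further one overlapped between genotypes. In others the second probe set showed little, as in T23G5.2 (0.88 and 0.029), F47D12.9 (0.99 and 0.0095) and fzr-1 (0.63 and -0.020). That of C46C2.5 had a low signal and differed by 0.22, with overlapping genotypes, against 1.06 at the chosen one. For 3 genes, pkc-2, T23G5.2 and C17H12.8, the probe set that met the rule was not the brightest of the gene. These further probe sets come from the same arrays and are not independent evidence. Of the 61, 14 rest on probe sets whose type marks probes shared by several transcripts. Another 3, cnc-2, cpr-3 and F09C8.1, rest on ones that may cross-hybridise. The further probe set of cpr-3 is of that type as well, so its likeness to the chosen one may come from shared sequences.

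The set was mainly made of genes without a class name. Of the 61, 38 carry only a sequence name, or 62.3%, against 39.2% of all genes measured, and 47 stood in none of the 22 gene lists. Leaving out 10 named classes raises that share by construction. Other sequence-named genes with large differences were ZK896.5, at 6.83, 7.42 and 6.10 against 8.39, 8.15 and 9.16, and Y37H2A.14, at 6.54, 7.06 and 6.04 against 7.58, 7.81 and 8.37. In both, wild-type replicate 3 was the lowest array and mutant replicate 3 the highest. M02H5.8 differed by 1.24, T05E12.3 by 1.21, F08G2.5 by 1.15, F09C8.1 by 1.12 and F19C7.2 by 1.1. The further probe sets of ZK896.5 and F09C8.1 differed by 0.45 and 0.54, each with overlapping genotypes. Among named genes not yet given, valv-1 read 6.22, 5.97 and 6.26 against 7.27, 6.95 and 8.06, txt-9 differed by 1.19, cest-13 of the carboxylesterase class by 0.78, kola-3 by 0.76 and warf-1, of the ADP-ribosylation factor family, by 0.79.

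Of the 22 lists, 15 held none of the 61 genes. They were the DAF-16 and insulin-like pathway (median difference -0.083 over 33 measured genes), heat and protein stress (-0.21 over 29), oxidative and osmotic stress (-0.071 over 39), lipid metabolism and fasting (-0.11 over 57), RNA binding and splicing factors (0.039 over 55) and chromatin and transcription repressors (0.0038 over 37). The families taken by name were chemoreceptors (0.040 over 1266), collagen and cuticle genes (-0.062 over 202), ion channels and transporters (0.010 over 314), homeobox and related factors (0.0060 over 185), neuropeptides (-0.13 over 85), their receptors (0.0087 over 112), sperm families (-0.034 over 89), lipid and carbohydrate enzymes (-0.041 over 234) and histones (0.067 over 34). In limma 1 collagen gene and 1 lipid and carbohydrate enzyme gene passed downward at an adjusted p under 0.05 and none of the rest passed. At an unadjusted p under 0.05 these lists had 1 to 12 genes higher and 0 to 20 lower, and an unmoderated model called 0. The shares higher ran from 0.89% (receptors) to 8.11% (chromatin and transcription repressors), beside 3.58% of all probe sets. The shares lower ran from 0% to 15.15% (DAF-16 and insulin-like pathway), beside 3.38%. Lipid metabolism and fasting had 12.28% lower, heat and protein stress 10.34% and collagen and cuticle genes 9.9%. That a list held none of the 61 genes says little about its pathway. Genes of the 10 classes left out by name could not be members. Of those genes 13 met the gap, among them ins-7 (difference 2.16), ech-9 (2.44), gst-24 (1.33) and dod-19 (0.92). With only 0.356% of all genes as members, a short list would also be likely to hold none. The list named for peptidases and inhibitors held 3 of the 61 among its 197 genes (1.52%, beside 0.356% of all genes), cpr-3, nep-14 and spp-18. Of these spp-18 is saposin-like and not a peptidase, and the gene table lists nep-14 as a pseudogene. The list median was 0.024, and limma called 1 upward, nep-14, whose own difference chose it. Of the 82 kinase and phosphatase genes 2 were members (2.44%), with a median of -0.046. The list of transthyretin-related, fungus-induced and small secreted families, 151 genes with a median of 0.015, also took in claudin-like genes, which encode membrane proteins. Its 3 members (1.99%) were clc-1, clc-19 and cnc-2. Another 3 of its genes, the same share, were past the gap downward, beside 0.327% of all genes.

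**Figure D4:**
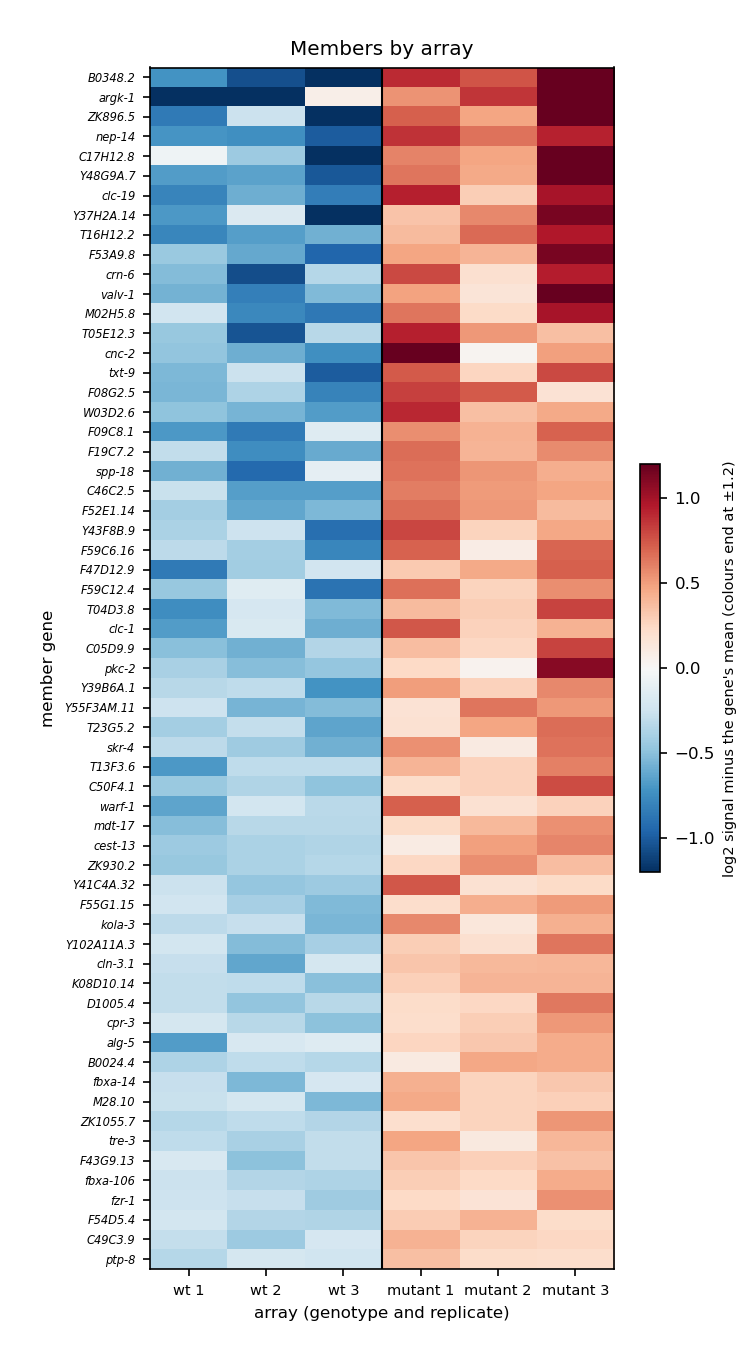
Log2 signal of each upward-separated gene (rows, ordered by difference) on each array (columns), as the distance from the gene's mean over the 6 arrays, with colours that end at ±1.2. All 3 mutant columns lie above all 3 wild-type columns in every row, as the rule requires, and argk-1 and C17H12.8 have the widest wild-type spread, with SDs of 0.90 and 0.95.

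Arrays of a genotype did not contribute evenly. The lowest mutant value came from replicate 2 in 35 of the 61 genes, from replicate 1 in 18 and from replicate 3 in 8, while over all genes replicate 2 was the lowest of the mutant arrays in 47.5%. The highest wild-type value came from replicate 1 in 24, from replicate 2 in 21 and from replicate 3 in 16, while over all genes these shares were 24.3%, 49.4% and 26.3%. The median of the 61 genes, each taken as the distance from its own mean, was -0.41, -0.41 and -0.50 on the wild-type arrays and 0.47, 0.29 and 0.55 on the mutant arrays. In 37 of the 61 (60.7%, beside 43.9% of all genes) the SD was larger in the mutant, with medians of 0.24 in the mutant and 0.17 in wild type.

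A control value that reads RNA integrity or labelling crossed the genotypes. For actin and Gapdh the array carries controls at the 3' and the 5' end, and their mean difference in wild-type order was 2.69, 4.12 and 2.52. In the mutant it was 4.01, 3.09 and 4.31, so wild-type replicate 2 lay with mutant replicates 1 and 3 and mutant replicate 2 with the other wild-type arrays. Within the arrays of low values the median difference of the 61 genes was 0.81, and within those of high values it was 0.91, each with 1 array on one side. The rule makes every such difference at least 0.4, so only their sizes are informative. With the 3' minus 5' value as a covariate the median was 0.79, with a range of 0.50 to 2.13, and 43 of the 61 differences became smaller. The slope on that value at fixed genotype was above 0 in 43 of the 61 (70.5%), beside 64.1% of all genes, with a median of 0.067 in the 61 and 0.067 in all genes.

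Members differed among themselves along this axis. In 7 genes the slope was over 0.3 per log2 unit, the steepest being ZK896.5 (0.68), C17H12.8 (0.48), Y37H2A.14 (0.45) and txt-9 (0.39). Their differences were reduced by the covariate, from 1.79 to 1.32 in ZK896.5 and from 1.57 to 1.24 in C17H12.8. In 7 others the slope was below -0.1, with spp-18 (-0.28), T05E12.3 (-0.28) and argk-1 (-0.27) the lowest, and the difference of argk-1 grew from 1.94 to 2.13. Genes such as nep-14 (1.63 and 1.53) and T16H12.2 (1.35 and 1.32) moved little. The part of RNA integrity in the differences was not tested further.

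**Figure D5:**
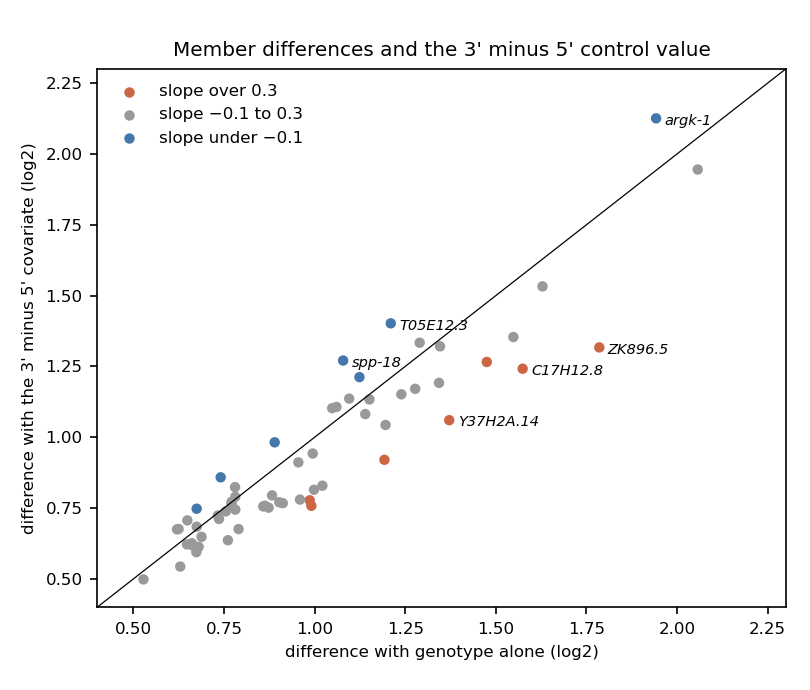
Difference of each upward-separated gene (log2) with genotype alone, horizontal axis, and with the 3' minus 5' control value as a covariate, vertical axis. Points on the line do not change; orange points have slopes over 0.3 on the control value and blue points slopes under -0.1, and all 61 stay above 0.

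Markers of tissues and stages were measured on the same arrays, and none of the 61 genes was on any of the 11 marker lists. With only 0.356% of all genes as members, lists this short could well hold none. Markers of the classes left out by name could not be members. Markers of spermatogenic cells, oocytes, early embryos and intestine all averaged above the array medians. So did a joint list of adult epidermis and yolk protein genes, which does not read the epidermis alone. Coelomocyte and dauer markers averaged near the array medians. All 19 markers of larval epidermis and moulting were lower in the mutant, with list means of 7.48 to 7.75 against 7.87 to 8.58 in wild type. Neuron markers averaged 6.07 to 6.14 against 6.22 to 6.47 (22 genes, 6 higher), and body wall muscle markers 9.64 to 9.65 against 9.67 to 10.13 (16 genes, 2 higher, median -0.29). The list means of the other 8 overlapped between genotypes, though several leaned lower. Pharynx markers had 2 of 14 higher with a median of -0.29, at 6.23 to 6.80 against 6.39 to 7.15. Spermatogenic markers had 3 of 22 higher, at 9.11 to 9.27 against 9.21 to 9.43, and coelomocyte markers 0 of 4, at 5.11 to 5.52 against 5.4 to 5.74. Intestine markers had 9 of 19 higher, at 9.46 to 9.65 against 9.38 to 9.73. The part of stage or tissue makeup in the higher signal of the 61 genes was not tested.

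By chromosome, 19 of the 61 genes lie on V (31.1%, beside 25.3% of genes measured), 14 on IV (23% and 15.6%), 10 on X, 8 on III, 6 on II and 4 on I (6.56% and 14.5%). Of the 60 genes set apart downward 25 lie on X and 4 on I. None of the 61 had another gene past the upward gap within 3 genes on either side. Of all genes 2.15% had one, and with so small a share none among 61 is close to the background. Nothing about their placement is read from it. Among 96 measured genes directly beside one of the 61, 55 were higher (57.3%, beside 53% of all genes) and 11 higher without overlap (11%, beside 6.8% of all probe sets), with a median difference of 0.024 and a range of -0.38 to 1.33. Beside F54D5.4, which differed by 0.62, F54D5.3 differed by 0.64 with a gap of 0.33, and beside C50F4.1, at 0.86, C50F4.9 differed by 0.60. The neighbours of B0348.2, egl-8 and B0348.1, differed by 0.11 each.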

How the data were processed

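Total RNA of mixed-stage whole worms was biotin-labelled for 3' expression arrays, per the labels' protocols. The authors deposited log2 values, 1 per probe set and array. The submitters' processing notes name RMA and Partek and give no version. The log2 scale was read from the values. No scanner file entered the analysis, which leaves background per probe set unknown.

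Besides 77 controls the table holds 22548 probe sets. Of these 20766 had 1 gene symbol, 887 had several and 895 had none in the platform annotation. Current symbols, chromosomes and gene order came from the RefSeq gene table of WBcel235, in which 65 probe sets found no gene. Where several probe sets of a gene met the rule, the one with the highest mean was kept. In counts over all genes a gene stood by its brightest probe set.

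SEs and calls came from limma 3.58.1 under R 4.3.3, a model with genotype alone, moderated variances and Benjamini-Hochberg adjustment over all probe sets at 0.05. The script was tested on simulated data. The members, lists, markers and tests were chosen with earlier results of these data known.

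Named by rule were tdp-1, the 15 members with the widest gap, the 10 with the largest difference, the 5 with the highest mean, the 5 on each side of the threshold, members that share a class, stand in a list or have further probe sets, and the 3 genes left out by name with the widest gaps. Relatives, neighbours and the other members were named after their values were seen. Alternatives changed the normalization, gap, filter, moderation, covariate, replicate block, probe set choice and arrays.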

Additional observations from a re-analysis of the deposited data

How the results depend on the processing

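The rule was met by 0.356% of genes measured (61). After quantile normalization 57 genes met it, 51 of them among the 61, and with equal array medians 72, 59 of them among the 61. It was met by 1.22% (208 genes) at a gap of 0.2, 0.0818% (14) at 0.6 and 0.0175% (3) at 1.0. With 1 array left out the rule is easier to meet, and the share ran from 0.421% to 0.713%. It was 0.66% without wild-type replicate 2 or 3, 0.543% without mutant replicate 1 and 0.713% without mutant replicate 2. Without wild-type replicate 2, 333 genes were set apart downward, against 60 with all arrays.

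The median difference of the 61 genes was 0.91, 0.79 with the 3' minus 5' covariate, 0.78 when all probe sets of a gene were averaged, and 0.85 to 1.04 with an array left out. All 620 recomputed differences of the 61 genes and tdp-1 kept their sign and moved by less than the replicate SD of the gene. These values share arrays with the rule, so they show no stability.

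Limma called 13 probe sets in all. The count was 7 with equal array medians, 25 with the covariate, 6 at an adjusted p under 0.01, 0 in an unmoderated model, and 4 to 97 with an array left out (5, 97 and 22 without wild-type replicates 1, 2 and 3, and 4, 7 and 4 without mutant replicates 1, 2 and 3). With the replicate number as a replicate block it was 5. Same-numbered arrays did not deviate together (correlations 0.050, -0.61 and -0.46), and no wild-type array correlated best with the mutant array of its own number. These correlations cannot decide whether the numbers are pairs. Deviations from a mean of 3 arrays depend on each other, and the 3' minus 5' value cuts across the numbers. The main model did not take the numbers as pairs. The number of arrays, 3 per genotype, limits every value.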

Other observations

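Of 7 further probe sets that met the upward gap without a single gene symbol, 4 carry a pair of symbols and 3 are not listed in the platform annotation. The widest gap, 2.45, belonged to the one for spig-4 and spig-5, with means of 5.93 (wild type) and 8.56 (mutant). The one for the lysozyme genes lys-5 and lys-6 averaged 5.10 and 6.81. The one for the saposin-like genes spp-2 and spp-3 differed by 0.69, and the one for the transthyretin-related genes ttr-3 and ttr-4 averaged 7.22 and 7.91. Which gene of each pair gave the signal cannot be told from these probe sets.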
